A study of Mus musculus with 2 samples.

Results

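The microRNA genes Mir103-1, Mir103-2, Mir107, Mir378a and Mir33, which lie inside genes of energy and lipid metabolism, were followed in small RNA libraries of mouse hippocampus. They were chosen by name from their host genes, with earlier results of these data known, and are 5 of the 2202 microRNA genes that were counted. The tissue came from male B6CASTF1/J mice aged 10 days, first-generation hybrids of C57BL/6J and CAST/EiJ, with no treatment labelled. There was 1 group of 2 biological replicates, each labelled with 3 males, so each library averages over animals. The labels give different animal numbers but 1 shared donor identifier for both, so the spread between the samples may in part be technical. With 1 group, the data show how abundant these microRNAs were and how far the 2 libraries differed, and hold no contrast between conditions.

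MicroRNAs are small RNAs cut from hairpin precursors, and they repress transcripts that pair with their seed, bases 2 to 8 of the mature strand. Mir107, Mir103-2 and Mir103-1 lie in the pantothenate kinase genes Pank1, Pank2 and Pank3, whose enzymes start the synthesis of coenzyme A, and in mouse liver and fat miR-103 and miR-107 are known to lower insulin sensitivity. Mir378a lies in Ppargc1b, which encodes a coactivator of mitochondrial and fatty acid oxidation genes. Mir33 lies in Srebf2, which encodes the transcription factor that switches on cholesterol synthesis, and miR-33 represses the cholesterol exporter Abca1. The brain makes its own cholesterol, and neurons depend on mitochondrial energy supply.

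The mature sequences are shown because they set which reads could be assigned to a gene. RefSeq (GRCm38.p6) gave sequences for 4 of the 5 genes, and Mir378a is described by name only. Each mature strand is printed from its 5′ end, with the seed in capitals.
miR-107-3p: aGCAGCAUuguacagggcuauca
miR-103-3p: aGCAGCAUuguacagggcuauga
miR-107-5p: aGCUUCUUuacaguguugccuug
miR-103-2-5p: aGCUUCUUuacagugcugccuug
miR-103-1-5p: gGCUUCUUuacagugcugccuug
miR-33-5p: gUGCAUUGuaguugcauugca
miR-33-3p: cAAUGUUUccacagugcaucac
The 3p strands of the Pank microRNAs had 1 seed in common, which no other mature entry of the RefSeq table had. Their 5p strands also had a seed in common that no further entry had. The seeds of miR-33-5p and miR-33-3p were each found in no other entry.

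Mir103-1 and Mir103-2 carry an identical 3p product. From the first base of the 3p strand on, their hairpins part only after the end of this product. A window of 30 bases from that base shows this, with the positions at which the 3 genes differ in capitals.
Mir103-1: agcagcauuguacagggcuauGaaGgCaUU
Mir103-2: agcagcauuguacagggcuauGaaAgAaCC
Mir107: agcagcauuguacagggcuauCaaAgCaCA
Counted from the first base of the 3p strand, the first difference between Mir103-1 and Mir103-2 was G25A, which lies 2 bases beyond the 23 bases of the mature strand. The only difference between mature miR-103-3p and miR-107-3p was G22C. On the 5p strand, Mir103-1 and Mir103-2 differed by G1A, and Mir103-2 and Mir107 by C16U, within the mature sequence. A read from the 5′ end of the 3p strand therefore had to reach 22 bases to match Mir107 alone and 25 bases to match 1 of the 2 Mir103 hairpins. On the 5p strand 10 bases were enough for Mir103-1, and 16 bases for Mir103-2 and for Mir107. These lengths hold for exact matches to the 2202 hairpins, since no genome sequence was searched.

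**Figure D1:**
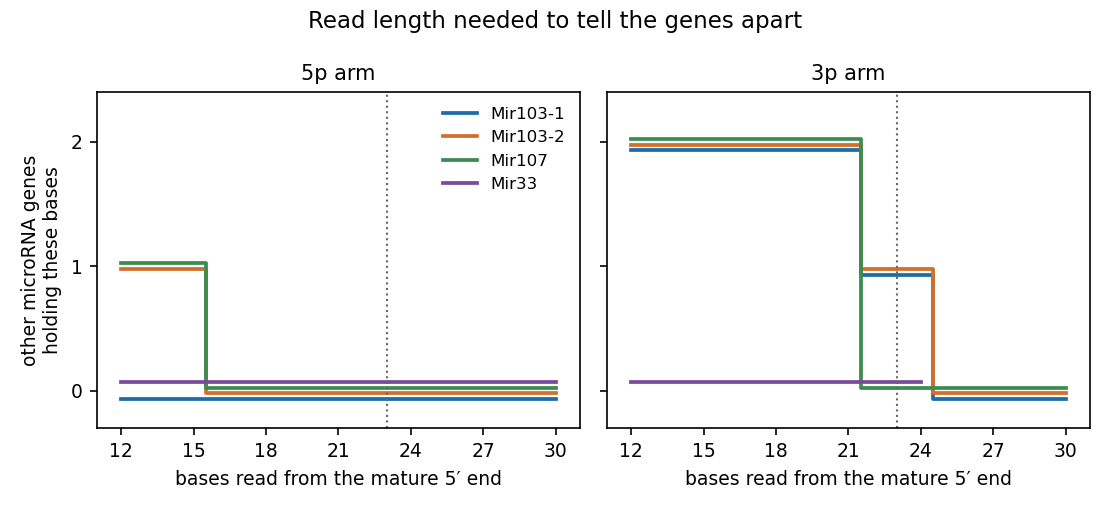
Number of other microRNA genes, at another place, whose hairpin holds the first bases of a mature strand exactly (vertical axis), by the number of bases read from its 5′ end (horizontal axis), for the 5p arm (left) and the 3p arm (right); lines are slightly offset, and the dotted line marks 23 bases. The 3p lines of Mir103-1 and Mir103-2 reach 0 at 25 bases, that of Mir107 at 22 bases, and Mir33 is at 0 over the whole range drawn.

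The hairpins of the Pank genes lie at corresponding places in their hosts. In the principal transcript of each Pank gene the hairpin is in intron 5 of 6, on the strand of the host. All positions are of the mm10 build. Mir107 is at 34820687-34820773 of chromosome 19, 326 bases after the preceding exon of Pank1. Mir103-2 is at 131288052-131288137 of chromosome 2, 454 bases after the preceding exon of Pank2. Mir103-1 is at 35782396-35782481 of chromosome 11, 688 bases after the preceding exon of Pank3. Their hairpins were 80.2% identical between Mir103-1 and Mir103-2, 80.5% between Mir103-1 and Mir107, and 83.9% between Mir103-2 and Mir107. Mir33 is at 82198122-82198190 of chromosome 15, in intron 16 of 18 of Srebf2. Mir378a is at 61397835-61397900 of chromosome 18, in intron 1 of 11 of Ppargc1b, which is 76981 bases long. No other microRNA gene is annotated inside the 3 Pank genes or Srebf2, whereas Gm25301 lies across Mir378a on the opposite strand, at 61397813-61397925.

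The files held 4815761 sense counts on microRNA genes in replicate 1 and 3495401 in replicate 2. Levels are counts per 1000000 of these (CPM). A read here holds a whole small RNA, so counts were not divided by length, and unequal capture of different microRNAs was not examined. The 5p and 3p products of a hairpin were counted together. A list of 12 microRNA genes of neurons or brain held 5.02% of the counts of replicate 1 and 8.17% of those of replicate 2, with Mir139 and Mir132 its highest genes, although the 3 Mir124a genes, which share stretches with each other, held 17 counts in each library. Of its 10 tested genes, 7 were lower in replicate 1, among them Mir132, the 1 that passed the test described further on. The other 3 were higher (Mir138-1, Mir138-2 and Mir9-3, log2 ratios of replicate 1 over replicate 2 of 0.69, 0.28 and 0.53). Among the 7 lower genes, Mir124a-1 and Mir9-2 each had 13 counts in replicate 1 and 11 in replicate 2, a difference within counting error. The Mir138 genes share 24 bases, the Mir128 genes 23 and the Mir9 genes 26 or more, so the levels of all these are uncertain. The list of red blood cells, led by Mir451a, held 0.123% of replicate 1 and 0.00764% of replicate 2. Within it Mir451a and Mir144 were higher in replicate 1 (log2 ratios 4.78 and 3.02), but Mir486 was not beyond counting error (0.15, adjusted p = 0.517 by the exact test). The list of choroid plexus and ciliated cells held 0.258% of replicate 1 and 0.533% of replicate 2. Endothelium, marked by Mir126a, held 1.49% of replicate 1 and 0.930% of replicate 2, oligodendrocytes 0.104% and 0.174%, and myeloid cells 0.0495% and 0.0906%. Within the oligodendrocyte list Mir219a-1, which shares 22 bases with Mir219a-2, was higher in replicate 1 (log2 ratio 0.97). Mir219a-2 and Mir338 were lower (-0.80 and -0.76). Within the myeloid list Mir142 was higher in replicate 1 (0.33), and Mir150, Mir155 and Mir223 were lower (-1.06, -0.10 and -2.08). The ratios of Mir142 and Mir155 did not exceed counting error (adjusted p = 0.0873 and 0.480 by the exact test). Mir150 held 1793 of the 2384 myeloid counts in replicate 1 and 2712 of 3168 in replicate 2. Of 6 muscle genes only Mir206 had counts (493 in replicate 1 and 114 in replicate 2), and Mir122 of liver held 0.00395% and 0.00315%. The Mir1a genes share 28 bases and the Mir133 genes 21 or more, so their counts of 0 do not show absence. The libraries thus differed in the summed markers of several cell types, in both directions, and genes of the same list did not always go the same way.

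By reads assigned to a single place, Mir378a and Mir107 were abundant microRNAs of this tissue, and Mir103-2, Mir33 and Mir103-1 were counted at low levels. All 5 genes reached 2 CPM in both libraries, as did 442 genes in all. Together they held 0.666% of counts in replicate 1 (95% exact Clopper-Pearson interval 0.658 to 0.673) and 0.775% in replicate 2 (0.766 to 0.784), a mean of 0.720% ± 0.0773 (SD, n = 2). Intervals of this kind cover counting error only. Mir107 and Mir378a made up 98.5% of the counts of the 5 genes in replicate 1 and 98.9% in replicate 2.

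**Figure D2:**
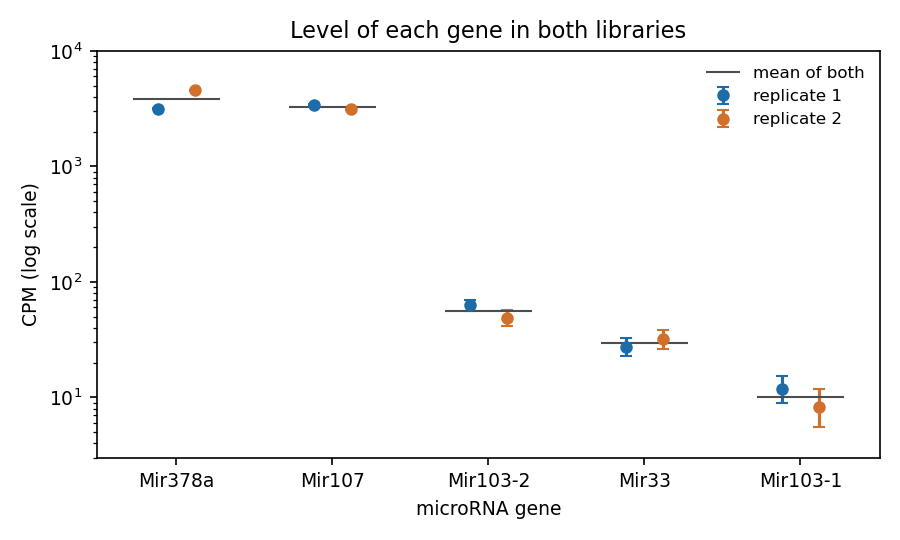
Level in CPM (log scale) of each of the 5 genes in replicate 1 and replicate 2, with exact 95% counting intervals as bars and the mean of both libraries as a line. Mir378a and Mir107 lie between 3112 and 4548 CPM, and the other 3 genes lie below 100 CPM.

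Mir378a had the highest mean level of the 5. It had 15211 counts in replicate 1 and 15897 in replicate 2, or 3159 and 4548 CPM, a mean of 3853 ± 982 CPM (SD, n = 2). This placed it at rank 49 of 2202 by mean CPM. Ranks leave out reads that fit several places, so genes with near copies may be ranked too low. Its level in replicate 1 lay below that in replicate 2, by a log2 ratio of replicate 1 over replicate 2 of -0.53 (95% counting interval -0.56 to -0.49).

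Mir107, of Pank1, was the main source of counts assigned to the Pank microRNAs. It had 16352 counts in replicate 1 and 10877 in replicate 2, or 3396 and 3112 CPM, a mean of 3254 ± 201 CPM (SD, n = 2), at rank 54. Its level was a little higher in replicate 1, with a log2 ratio of 0.13 (0.09 to 0.16). Its coefficient of variation over the 2 libraries was 6.17%, against 25.5% for Mir378a, and this contrast depended on the scaling: it was 14.5% for Mir107 and 17.3% for Mir378a with DESeq2 size factors. The order of these 2 genes was not the same in both libraries: Mir107 counts were 1.08 times those of Mir378a in replicate 1 (1.05 to 1.10) and 0.684 times in replicate 2 (0.668 to 0.701). Their levels therefore did not differ beyond the spread between the libraries.

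The Mir103 genes had far fewer assigned counts than Mir107. Mir103-2, of Pank2, had 301 counts in replicate 1 and 170 in replicate 2, or 62.5 and 48.6 CPM, a mean of 55.6 ± 9.81 CPM (SD, n = 2), at rank 240. Mir103-1, of Pank3, had 57 and 29 counts, or 11.8 and 8.30 CPM, a mean of 10.1 ± 2.50 CPM (SD, n = 2), at rank 330. Both had more CPM in replicate 1, with log2 ratios of 0.36 (0.09 to 0.64) for Mir103-2 and 0.50 (-0.16 to 1.21, which includes 0) for Mir103-1. Mir107 took 97.9% of the counts of the 3 Pank microRNAs in replicate 1 and 98.2% in replicate 2. Mir103-2 had 5.28 times the counts of Mir103-1 in replicate 1 (3.97 to 7.14) and 5.86 times in replicate 2 (3.94 to 9.02), so these ratios agree within counting error.

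The Mir103 counts are those of reads assigned to a single place. Reads that fit several places were left out of the gene counts and numbered 4660508 in replicate 1 and 4020799 in replicate 2, or 0.968 and 1.15 per read counted on a gene. The files do not say how many of them were miR-103-3p, whose 23 bases are in both Mir103 hairpins. An exact read of those 23 bases fits both hairpins, since 25 bases are needed to match 1 alone, and was left out. The levels of Mir103-1 and Mir103-2 are thus uncertain, do not measure mature miR-103-3p and may understate miR-103. The share of Mir107 can lie above its true share. Mir107 shares 24 consecutive bases with each Mir103 hairpin, so its level is uncertain as well.

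Mir33, of Srebf2, was low in both libraries and had no near copy. It had 132 counts in replicate 1 and 112 in replicate 2, or 27.4 and 32.0 CPM, a mean of 29.7 ± 3.28 CPM (SD, n = 2), at rank 266. The log2 ratio was -0.23 (-0.60 to 0.15), an interval that includes 0. The longest stretch it shared with another microRNA gene was 12 bases, against 27 for the Mir103 genes. Mir378a had 115.2 times the counts of Mir33 in replicate 1 and 141.9 times in replicate 2.

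By mean level of the assigned counts the order was Mir378a, Mir107, Mir103-2, Mir33 and Mir103-1. The places of the Mir103 genes in it are uncertain, because reads that fit both Mir103 hairpins were left out. The neighbours Mir378a and Mir107 changed places between the libraries. The other neighbours kept their order in both: Mir103-2 had 2.28 times the counts of Mir33 in replicate 1 (1.85 to 2.82) and 1.52 times in replicate 2 (1.19 to 1.94), and Mir33 had 2.32 times (1.69 to 3.22) and 3.86 times (2.55 to 6.03) those of Mir103-1.

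Whether Mir378a was counted at all depended on the strand setting. The deposited tables count each gene by its own strand, by the other strand and without regard to strand. In the column without regard to strand Mir378a had 0 counts in both libraries, against 15211 sense counts in replicate 1 and 15897 in replicate 2. Gm25301, annotated as a microRNA gene that spans it on the other strand, had 0 sense counts in both libraries. Its antisense counts were 15211 in replicate 1 and 15897 in replicate 2, the same numbers as the sense counts of Mir378a, so all reads counted at this place lay on the strand of Ppargc1b. When strand was ignored, 281108 reads in replicate 1 and 212068 in replicate 2 were set aside as ambiguous, which is exactly the sum over genes of the sense counts lost. The Mir378a count equals 5.41% of these in replicate 1 and 7.50% in replicate 2. Of 540 genes with at least 10 sense counts over both libraries, 26 had 0 counts without regard to strand, and each of them overlaps a microRNA gene of the opposite strand. Mir378a was the fourth most abundant of the 26. The other 4 genes had the same counts with and without regard to strand, and all 5 had 0 antisense counts.

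**Figure D3:**
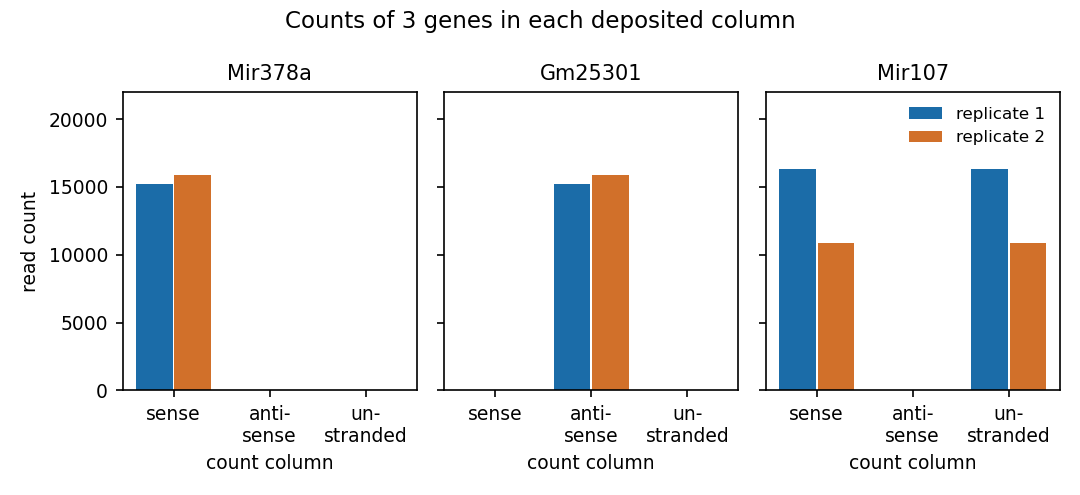
Read counts of Mir378a, of the opposite-strand gene Gm25301 and of Mir107 in the sense, antisense and unstranded columns, for replicate 1 and replicate 2. Mir378a has 15211 and 15897 sense counts and 0 unstranded counts, Gm25301 has the same numbers as antisense counts, and Mir107 has equal sense and unstranded counts.

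None of the 5 genes passed the test for a difference between the libraries, which 18.7% of all tested genes passed. The test was an exact two-sided binomial test on the reads of each gene with Benjamini-Hochberg adjustment over 540 genes, and passing needed both an adjusted p under 0.05 and a difference of 1 or more on the log2 scale in either direction. It compares these libraries, not conditions. By this test 0 of 5 members and 101 of 540 genes passed. With so few members, a count of 0 does not set them apart from the other genes. At an unadjusted p below 0.05, with no minimum of the ratio, 3 of the 5 members lay below the threshold, against 59.4% of genes. The adjusted p alone also lay below 0.05 for 3 of the 5, against 55.7% of genes. These were Mir378a (adjusted p = 6.25e-225 by the exact test), Mir107 (5.06e-12) and Mir103-2 (0.0172), whose differences exceed counting error but are smaller than 2-fold. Mir103-1 and Mir33 had adjusted p of 0.196 and 0.347 by the exact test, at counts that leave wide intervals.

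The ratios of the 5 genes were compared with those of all tested genes as a description. Their median log2 ratio was 0.13, beside -0.17 over the 540 genes, and 3 lay above 0 and 2 below. Their median absolute log2 ratio was 0.36, beside 0.54 over all tested genes and 0.36 over the 110 genes that averaged 1000 CPM or above. Of the 5, Mir378a and Mir107 alone averaged that much, so the last value is not matched in level to the others. Mir378a lay furthest from 0 and had a larger absolute ratio than 49.1% of tested genes, and Mir107 lay nearest and had a larger one than 12.2%. With DESeq2 size factors, which put the median of all genes at -0.00094, the log2 ratio was -0.35 for Mir378a, -0.06 for Mir33, 0.30 for Mir107, 0.53 for Mir103-2 and 0.67 for Mir103-1, so each kept its sign. Of the genes that passed, 38.6% were higher in replicate 1, a share of 46.9% with TMM sizes and 55.6% with DESeq2 factors. In bulk tissue, a difference in the number of cells of a type and one in RNA per cell cannot be told apart. The part of the marker differences given above in these ratios was not tested.

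**Figure D4:**
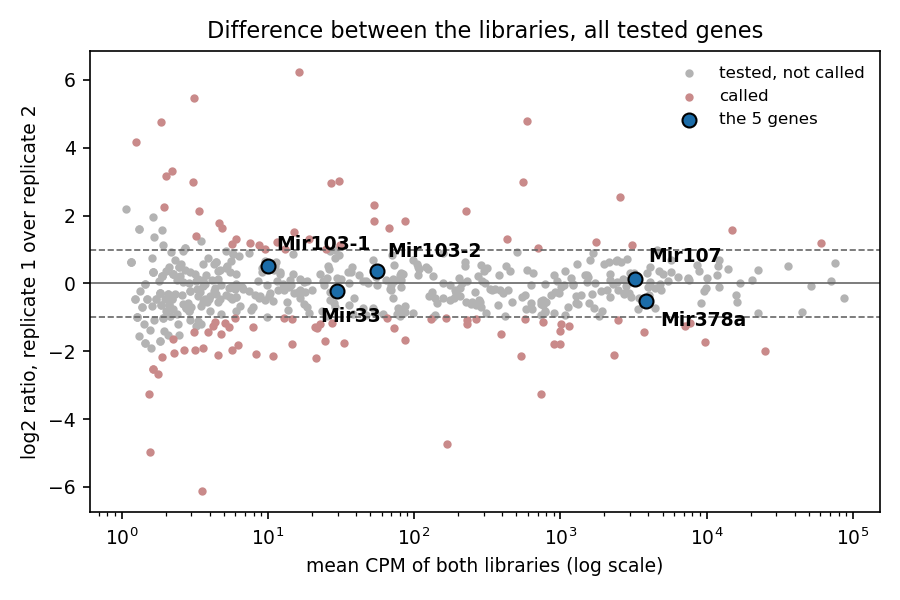
Log2 ratio of replicate 1 over replicate 2 (vertical axis) by mean CPM of both libraries (horizontal axis, log scale) for the 540 tested genes, with genes that passed the test in red, the others in grey and the 5 genes in blue; dashed lines mark log2 ratios of -1 and 1. All 5 genes lie between the dashed lines, Mir107 at 0.13 and Mir378a at -0.53.

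For each of the 5 genes, the genes just above and below it in mean level were compared with it. Likeness was the absolute difference of log2 mean CPM over the 2 libraries of 1 group. Nearest to Mir107 were Mir30a above it (3310 CPM, log2 ratio 0.04) and Mir370 below it (3234 CPM, 0.22). Nearest to Mir378a were Mir17 (3891 CPM, 0.30) and Mir674 (3738 CPM, -1.42), of which Mir674 passed the test. Nearest to Mir103-2 were Mir214 (56.1 CPM, -0.04) and Mir24-1 (55.1 CPM, 0.20), where Mir24-1 shares 28 bases with Mir24-2 and with Mir3074-2 and its level is uncertain. Nearest to Mir33 were Mir486 (29.9 CPM, 0.15) and Mir219a-1 (28.9 CPM, 0.97), which shares 22 bases with Mir219a-2 and with Mir219b and is uncertain too. Nearest to Mir103-1 were Mir6990 (10.2 CPM, -0.36) and Mir7070 (9.90 CPM, -0.98). Of these 10 neighbours, Mir674 alone passed, against 18.7% of all tested genes.

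The miR-15 and miR-16 group has a seed that is offset by 1 base from that of miR-103 and miR-107, as its mature strands show with the seed in capitals.
miR-15a-5p: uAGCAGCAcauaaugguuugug
miR-16-5p: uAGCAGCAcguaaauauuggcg
miR-195a-5p: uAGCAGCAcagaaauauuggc
miR-497a-5p: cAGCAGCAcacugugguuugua
miR-322-5p: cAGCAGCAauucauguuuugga
Bases 1 to 7 of miR-103-3p and of miR-107-3p are the same 7 letters as this seed. The group is known for slowing the cell cycle. The list used for the group holds 10 genes of the files, of which 8 carry this seed. The other 2 are Mir503, with 312 counts in replicate 1 and 257 in replicate 2, whose 5p seed is a different one, and Mir497b, which had 0 counts, as did Mir195b. The 8 genes with the seed held 0.585% of the counts of replicate 1 and 0.697% of those of replicate 2, beside 0.666% and 0.775% for the 5 metabolic genes. The 3 most abundant were Mir497 at 1652 ± 259 CPM, Mir322 at 1544 ± 148 CPM and Mir195a at 1152 ± 674 CPM (SD, n = 2 for each). Each lay below Mir107 in both libraries. An exact read of miR-16-5p fits both Mir16-1 and Mir16-2 and was left out. The share of the group and the order of its genes rest on assigned counts and may understate miR-16. Of 7 tested genes with the seed, 2 passed the test, with the background of 18.7% as above. Mir16-1 was higher in replicate 1, with 2985 counts in replicate 1 and 873 in replicate 2 and a log2 ratio of 1.31, but it shares 23 bases with Mir16-2 and its level is uncertain. Mir195a was lower in replicate 1, with 3253 and 5695 counts and a log2 ratio of -1.27. The median log2 ratio of the 7 was 0.07, and -0.06 with Mir503 included, beside -0.17 over all tested genes.

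The other miR-378 genes were nearly absent from the counts. Mir378d had 10 counts in replicate 1 and 13 in replicate 2, Mir378c had 4 and 1, and Mir378b had 0 in both, where a count of 0 allows up to 0.623 CPM in replicate 1 and 0.858 CPM in replicate 2. Mir378d, the 1 gene with enough counts to be tested, did not pass (log2 ratio -0.82, adjusted p = 0.302 by the exact test). Mir378a shared at most 20 consecutive bases with a gene at another place, Mir378c.

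Further microRNAs known for cholesterol and lipid handling gave levels on both sides of Mir33 and Mir378a. The 11 genes held 0.672% of the counts of replicate 1 and 1.15% of those of replicate 2. The most abundant were Mir128-1 (4439 ± 1568 CPM), Mir128-2 (1847 ± 836 CPM) and Mir106b (1316 ± 384 CPM, SD, n = 2 for each), and the Mir128 genes, also neuronal markers, share 23 bases. Mir122, the liver microRNA that favours cholesterol synthesis, reached 39.5 CPM in replicate 1 and 31.5 in replicate 2, beside 27.4 and 32.0 CPM for Mir33. Of 11 tested, 3 passed, 1 higher and 2 lower in replicate 1, against 7.22% and 11.5% of all tested genes. The higher was Mir144, of the red blood cell list (263 counts in replicate 1 and 23 in replicate 2, log2 ratio 3.02). The lower were Mir27b (2929 and 4919 counts, log2 ratio -1.21), which shares 20 bases with Mir27a, and Mir223 of myeloid cells (15 and 47 counts, -2.08). The median log2 ratio of the 11 was -0.60, and 3 lay above 0 and 8 below.

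Of 11 microRNA genes known for glucose, insulin or fat cell biology, 10 could be tested and 1 passed, lower in replicate 1, as did 11.5% of all tested genes. They held 1.15% of the counts of replicate 1 and 1.32% of those of replicate 2. Mir130a (5441 ± 158 CPM) and Mir143 (3946 ± 176 CPM, SD, n = 2 for both) had mean levels above those of Mir378a and Mir107. The order of Mir143 and Mir378a was not the same in both libraries. They had 3822 and 3159 CPM in replicate 1, and 4071 and 4548 CPM in replicate 2. Mir29a, the third most abundant at 993 ± 631 CPM (SD, n = 2), passed and was lower in replicate 1 (2634 counts in replicate 1 and 5032 in replicate 2, log2 ratio -1.40). Mir375, the microRNA of pancreatic islets, reached 507 CPM in replicate 1 and 642 in replicate 2 and did not pass, and Mir802 had 1 count in replicate 1 and 0 in replicate 2. Over the 10 the median was -0.50 on the log2 scale, beside -0.17 over all tested genes.

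**Figure D5:**
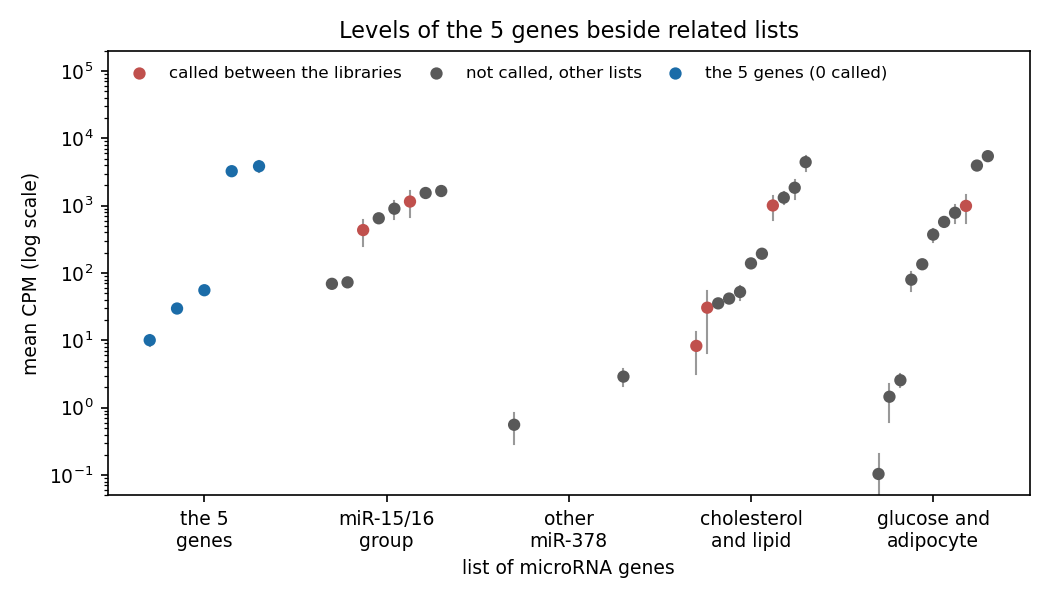
Mean CPM (log scale) of the 5 genes and of the genes of 4 related lists, with a vertical line between the values of the 2 libraries; genes that passed the test are red, and genes with 0 counts in both libraries are not drawn. Mir378a and Mir107 lie among the highest points, and the 3 remaining genes lie between 10.1 and 55.6 CPM.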

How the data were processed

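MicroRNA sequencing of total RNA, with fragments below 30 nt per the labels, was analysed in 2 libraries of hippocampus. Each library has a deposited table of raw counts of reads by microRNA gene, made on mm10 with GENCODE M21 per the submitters' notes. No source used here names the aligner or the counter. Gene identifiers were matched to GENCODE M21, and the third column was used as sense counts. The 4 lines of totals, which hold reads not assigned to a gene, stayed out of library sizes and tests: reads that fitted several places were 37.7% of all reads in replicate 1 and 39.8% in replicate 2, and unmapped reads 17.7% and 19.5%. Depths were 4815761 and 3495401 sense counts.

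CPM was computed from the counts. A count of 0 was given a limit of 3 counts. The libraries were compared gene by gene, where both together had 10 counts or more, by the exact binomial test (two-sided, Benjamini-Hochberg adjusted). The log2 ratios of replicate 1 over replicate 2 had 0.5 counts added. A quasi-likelihood test was not used, since 1 group of 2 libraries leaves no contrast. The test was checked on simulated counts that held counting error only, so the check does not cover further spread between libraries. Mature and hairpin sequences came from RefSeq (GRCm38.p6), and stretches of 20 shared bases were searched in GENCODE M21 hairpins on both strands. Named genes were the 5 members, the genes ranked just above and below each, the 3 most abundant and the passing genes of each list, and microRNA genes in the same hosts. Any gene named outside this rule was picked with its values in view. The members and lists were chosen with earlier results of these data known. Alternatives covered scaling (TMM, DESeq2 size factors), the ratio minimum, filters on low counts, the count added, the strand column, the denominator and each replicate left out. Python 3.11.15, SciPy 1.17.1, pandas 2.3.3, R 4.3.3, edgeR 4.0.16 and DESeq2 1.42.0 were used. Reads of CAST/EiJ alleles were not analysed separately.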

Additional observations from a re-analysis of the deposited data

How the results depend on the processing

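The log2 ratios of the 5 genes kept their sign under every alternative run (TMM sizes, DESeq2 size factors, both filters on low counts, 1 count added and unstranded counts, where Mir378a could not be tested for lack of counts). With the adjusted p alone, and no minimum of the ratio, 3 of the 5 genes and 301 of all genes differed, against 0 and 101. Under the other alternatives 0 of the 5 differed and the number over all genes lay between 76 and 111. The summed share of the 5 genes, 0.720% of sense counts, was 0.264% of all reads and 0.356% of unstranded counts, where Mir378a is at 0. Leaving out a replicate gave 0.666% to 0.775%. Counts of 29 to 57 limit Mir103-1, and 112 to 132 limit Mir33. No paired analysis was possible because there is 1 group.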
